A study of Danio rerio with 27 samples.

Results

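The effect of targeting TGR5, a cell-surface receptor for bile acids encoded by gpbar1, was examined in tumour-bearing zebrafish larvae. The comparison set 5 libraries of PY larvae with TGR5 and SLC45a2 both targeted (PY TGR5-KO) against 5 libraries of PY larvae with SLC45a2 alone targeted (PY SLC45a2-KO). They were selected by their labels and make up 10 of the 27 libraries of the series. The PY line carries more than 1 engineered change, among them constant overproduction of the growth regulator YAP in the liver, and is described as cachectic, that is wasting. All 10 libraries share these changes and the SLC45a2 edit, whose loss of pigment marks injected animals, so the labelled difference between the groups is the TGR5 guides. The labels do not say whether the groups came from the same clutches, and a difference of clutch or stock cannot be told apart from the guides. Each library was made from pooled whole larvae aged 21 days post fertilisation, with 3′ mRNA tags (QuantSeq). Edits were made by injecting Cas9 complexes into the yolk of embryos, so the larvae are injected animals and not a bred mutant line, and the sources used here do not state the share of edited cells. As a second background, 4 libraries of WT TGR5-KO and 4 of WT SLC45a2-KO (wild type larvae of the same age with the same guides) were used.

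TGR5 couples to stimulatory G proteins, so that bile acids raise cyclic AMP in cells that carry it, which activates protein kinase A and CREB-family transcription factors. In mammals it is found in bile duct and gallbladder epithelium, gut endocrine cells, macrophages, brown fat and muscle. There it is known for restraining NF-kB-driven cytokine production in macrophages, for bile flow and gallbladder filling, and for raising energy expenditure through the thyroid hormone-activating enzyme Dio2. The liver makes bile acids from cholesterol through Cyp7a1 and Cyp8b1, under feedback from the receptor FXR, and exports them through Abcb11 and Abcc2.

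The 10 libraries held 3757144 to 4725438 counts, and 3 counts, which a count of 0 still allows, equal 0.635 to 0.798 CPM. This limit covers counting error only. Levels below are CPM, counts per 1e+06 counts of a library, scaled by TMM factors (0.91 to 1.07). Component 1 of a principal component analysis, run on the 2000 most variable genes, held 31.7% of variance and parted the groups, with PY TGR5-KO libraries at 13.2 to 28.6 and PY SLC45a2-KO libraries at -28.2 to -10.2. Pairs of libraries had a Pearson's r (log2 CPM) of 0.91 to 0.947 in PY TGR5-KO and 0.921 to 0.945 in PY SLC45a2-KO, and of 0.881 to 0.93 across the groups. No 2 libraries of a group agreed within sampling noise (chi-square per degree of freedom 6.26 to 13.2). One entry for the mitochondrial genome took 26 to 35.7% of counts.

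The targeted genes were too sparse to check the edits. For gpbar1 there were 5, 0, 0, 0 and 8 counts in PY TGR5-KO libraries and 5, 0, 4, 0 and 4 in PY SLC45a2-KO libraries (exact two-sided permutation p = 0.921, where 0.0079 is the smallest possible). For slc45a2, which is targeted in both groups, there were 1 and 11 counts (exact permutation p = 0.167). The sources used here do not locate the guides, and a 3′ tag that lies outside the edited part checks nothing about a knockout. The yap1 transcript had 18 counts in PY TGR5-KO and 61 in PY SLC45a2-KO (exact permutation p = 0.0714, adjusted over these 3 genes 0.214). A single library, PY SLC45a2-KO 4, stood at 8.01 CPM of yap1, while the other 9 ran up to 2.37 CPM. The yap1 difference did not pass the test. WT TGR5-KO libraries held 0, 1, 0 and 0 yap1 counts and WT SLC45a2-KO libraries 0, 0, 3 and 0, so most of the tags were in PY. A 3′ tag need not read a transgene, and whether these tags came from it was not tested.

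Of 12604 genes tested with edgeR's quasi-likelihood test at a Benjamini-Hochberg adjusted p under 0.05, 1552 passed (12.3%). In PY TGR5-KO 759 were higher (6.02%) and 793 lower (6.29%), and the median log2 change of all genes was 0.0042. For 1185 genes (9.4%) the 5 libraries of one group all lay outside the range of the other, with PY TGR5-KO above for 4.53% and below for 4.87%. The p-values measure the spread between pools. Genes were also counted by list. The lists were chosen with earlier results of these data known, and no list was tested as a set. The lists with the highest shares of lower genes were clotting (54.5%), NF-kB (50%), complement (46.2%) and AP-1 (41.7%). Those with the highest shares of higher genes were lens crystallins (63.9%), transcripts of mitochondrial DNA (58.3%), bone (47.6%), fibrillar collagens (45.5%) and muscle sarcomere (41.7%). In bulk RNA, fewer cells of a type and less RNA per cell cannot be told apart, and this holds for every gene group below. List counts cover the members that passed the filter on low counts. They are to be read against the 6.02% higher and 6.29% lower over all genes. Where a list below has 0 genes called by edgeR in a direction, 0 to 4 of its genes had an unadjusted p under 0.05 that way and 0 to 2 passed in DESeq2.

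**Figure D1:**
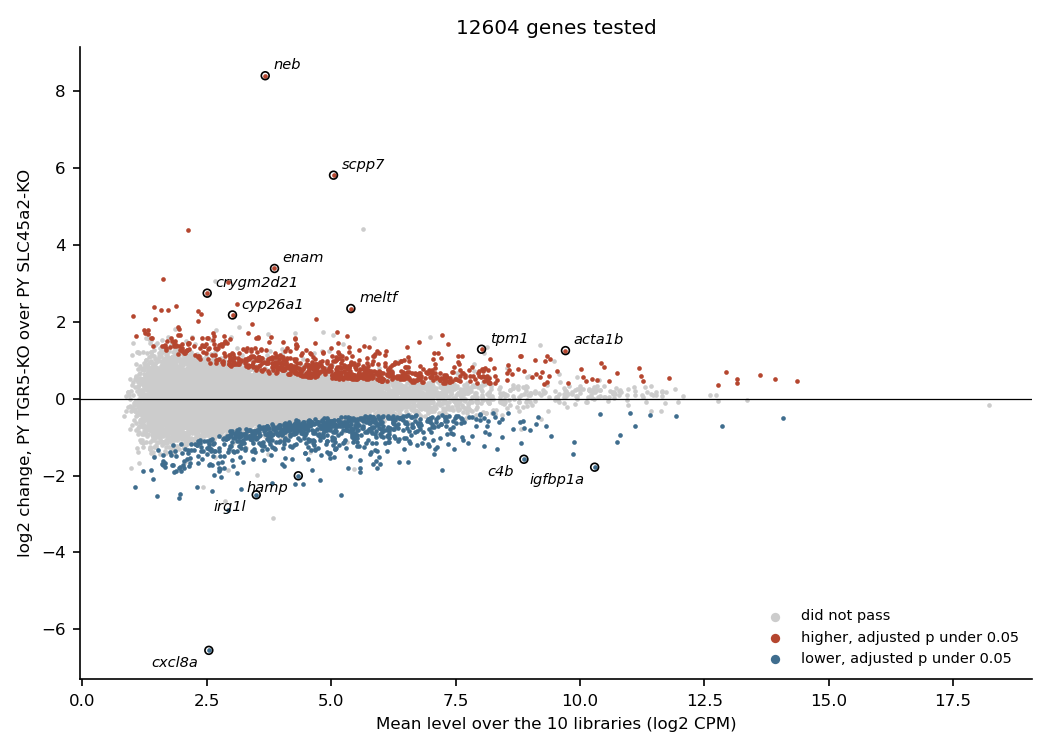
Change of each gene tested. The x axis is the mean level over the 10 libraries (log2 CPM) and the y axis the log2 change of PY TGR5-KO over PY SLC45a2-KO, 1 point per gene, with genes that passed in red (higher, 759) and blue (lower, 793) and named genes ringed. Among named genes neb, scpp7 and enam lie highest and cxcl8a lowest, each near 0 CPM in some libraries.

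**Figure D2:**
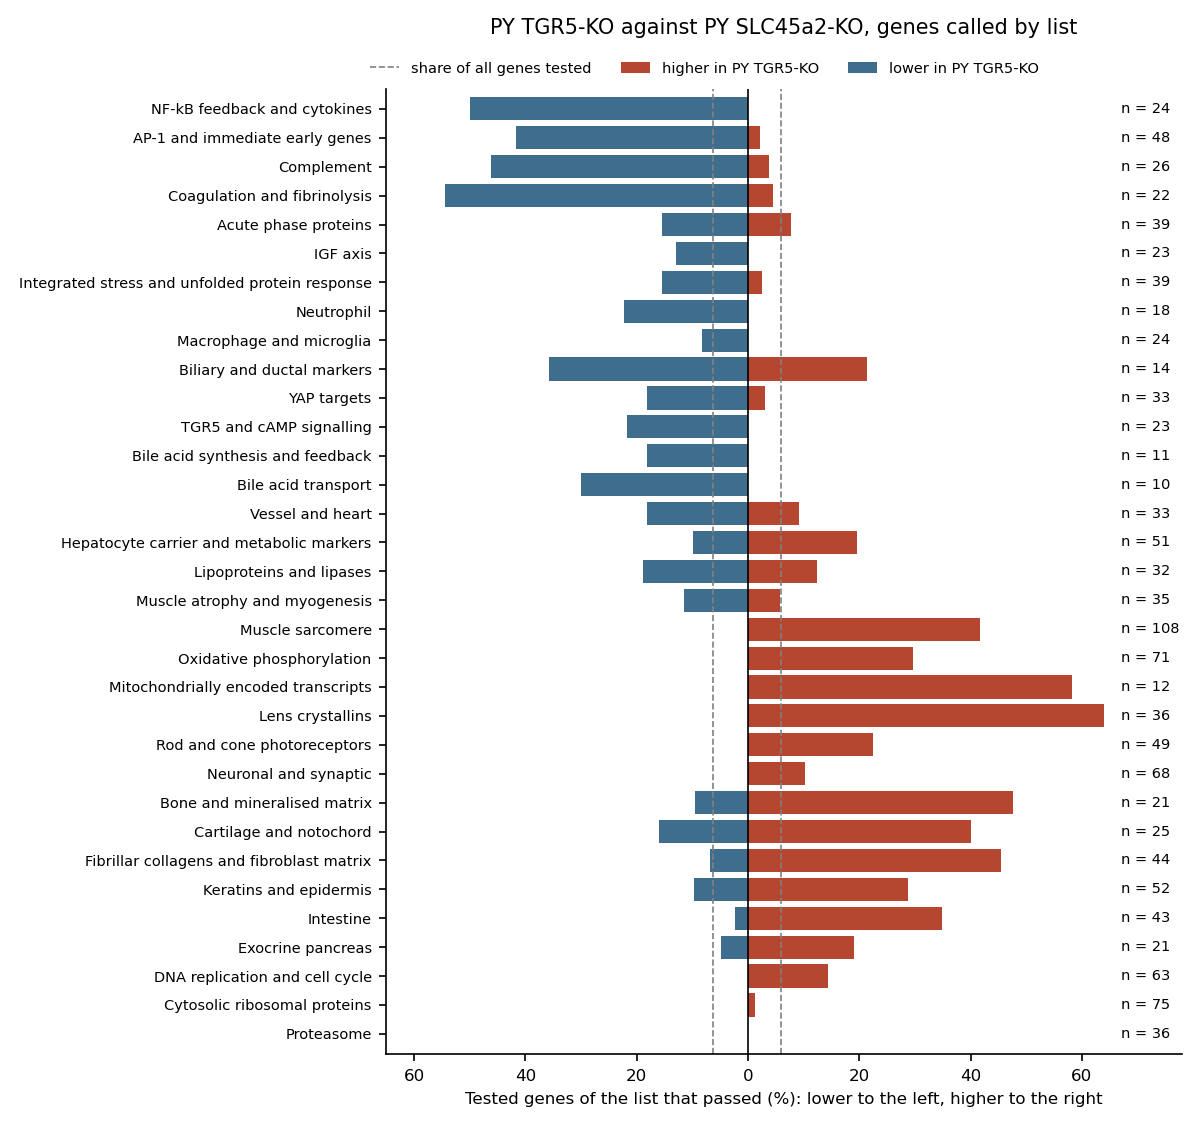
Share of the tested genes of each list that passed, in percent, lower in PY TGR5-KO to the left and higher to the right, with the number tested at the right edge. Dashed lines mark the shares over all genes, 6.29% lower and 6.02% higher. Clotting, NF-kB and complement lists reach furthest left and lens crystallins furthest right.

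Transcripts of the NF-kB response, the programme of cytokines and feedback inhibitors switched on by infection and damage, were lower with TGR5 targeting. Of 24 tested genes (49 listed) 12 fell and 0 rose, against 6.29% lower over all genes, and the median log2 change of the list was -0.89. Leaving out single libraries gave 9 to 12 lower genes. The feedback enzyme tnfaip3 (A20), itself an NF-kB target, stood at 19.6, 19, 22.5, 20.8 and 19.2 CPM in PY TGR5-KO libraries and at 62.2, 115, 74.9, 78.5 and 44.7 CPM in PY SLC45a2-KO libraries. Its PY TGR5-KO values were nearly level, all under the lowest PY SLC45a2-KO value (log2 change -1.90 ± 0.20, SE, adjusted p = 3.77e-07). For the inhibitor nfkbiaa (IkB alpha) the PY TGR5-KO libraries held 60.9, 57.4, 70.4, 59.4 and 50.2 CPM and the PY SLC45a2-KO libraries 126, 223, 114, 105 and 90.7 CPM. The groups again did not overlap (log2 change -1.15 ± 0.19, adjusted p = 0.000341), and PY SLC45a2-KO 2 was the high library for both genes.

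The neutrophil-attracting chemokine cxcl8a had counts in 1 of 5 PY TGR5-KO libraries, at 0.526 CPM, and in every PY SLC45a2-KO library, at 6.24, 35.5, 8.96, 4.42 and 2.54 CPM. It passed (adjusted p = 0.00457) but not without PY TGR5-KO 4 (0.0762), and its fitted log2 change, -6.54, ran from -8.65 to -5.46 as single libraries were left out. Another chemokine, cxcl20, averaged 14.8 CPM in PY TGR5-KO and 40.5 CPM in PY SLC45a2-KO (log2 change -1.47 ± 0.22, adjusted p = 6.91e-05). Outside the list, irg1l, a relative of the mammalian enzyme that makes itaconate in inflamed tissue, stood at 0.854, 1.13, 4.29, 7.36 and 3.64 CPM in PY TGR5-KO and at 14.1, 27.5, 20.9, 13.8 and 19.1 CPM in PY SLC45a2-KO. Every PY TGR5-KO value was lower than every PY SLC45a2-KO value (log2 change -2.50 ± 0.40, adjusted p = 0.000366). The metalloreductase steap4, induced by cytokines, averaged 39.8 CPM in PY TGR5-KO and 124 CPM in PY SLC45a2-KO (log2 change -1.65 ± 0.20, adjusted p = 1.04e-05). A further pair of list members fell without overlap, the flagellin receptor tlr5a (log2 change -1.44 ± 0.34, adjusted p = 0.00506) and the TNF-induced gene tnfaip2b (-1.998 ± 0.35, adjusted p = 0.000341).

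Immediate early genes of the AP-1 family, which encode short-lived transcription factors made within minutes of a growth or stress signal, moved the same way. Of 48 tested genes (66 listed) 20 fell and 1 rose, with a median log2 change of -0.61. The stress-induced repressor atf3 stood at 18.4, 29.6, 37.6, 30.8 and 18.7 CPM in PY TGR5-KO and at 92.7, 157.7, 91.8, 77.6 and 48.1 CPM in PY SLC45a2-KO (log2 change -1.80 ± 0.29, adjusted p = 0.00154). For fosl1a (Fra-1) the values were 17.7, 30, 24.2, 17.6 and 16.7 CPM in PY TGR5-KO and 67.2, 133, 49, 76.8 and 44.7 CPM in PY SLC45a2-KO (log2 change -1.81 ± 0.28, adjusted p = 0.000668). Neither gene overlapped between the groups. The zinc finger factor egr4 was at 2.35, 1.81, 3.53, 1.05 and 5.58 CPM in PY TGR5-KO and at 10.6, 10.25, 11.7, 11.6 and 8.69 CPM in PY SLC45a2-KO (log2 change -1.88 ± 0.34, adjusted p = 0.000487). Both fosb and junba fell (log2 change -1.15 ± 0.19 and -1.07 ± 0.18, adjusted p = 0.000249 and 0.000267). For fosab the groups met, because PY TGR5-KO 1, at 160.6 CPM, exceeded PY SLC45a2-KO 1; the other PY TGR5-KO libraries ran from 71 to 95.6 CPM and the other PY SLC45a2-KO libraries from 205 to 279 CPM (log2 change -1.19 ± 0.20, adjusted p = 0.000728). The growth factor hbegfb, a ligand of the EGF receptor, averaged 7.37 CPM in PY TGR5-KO and 20.1 CPM in PY SLC45a2-KO (log2 change -1.46 ± 0.25, adjusted p = 0.000262). The acute phase transcription factor cebpb averaged 70.5 CPM in PY TGR5-KO and 155.4 CPM in PY SLC45a2-KO (log2 change -1.15 ± 0.21, adjusted p = 0.00134).

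**Figure D3:**
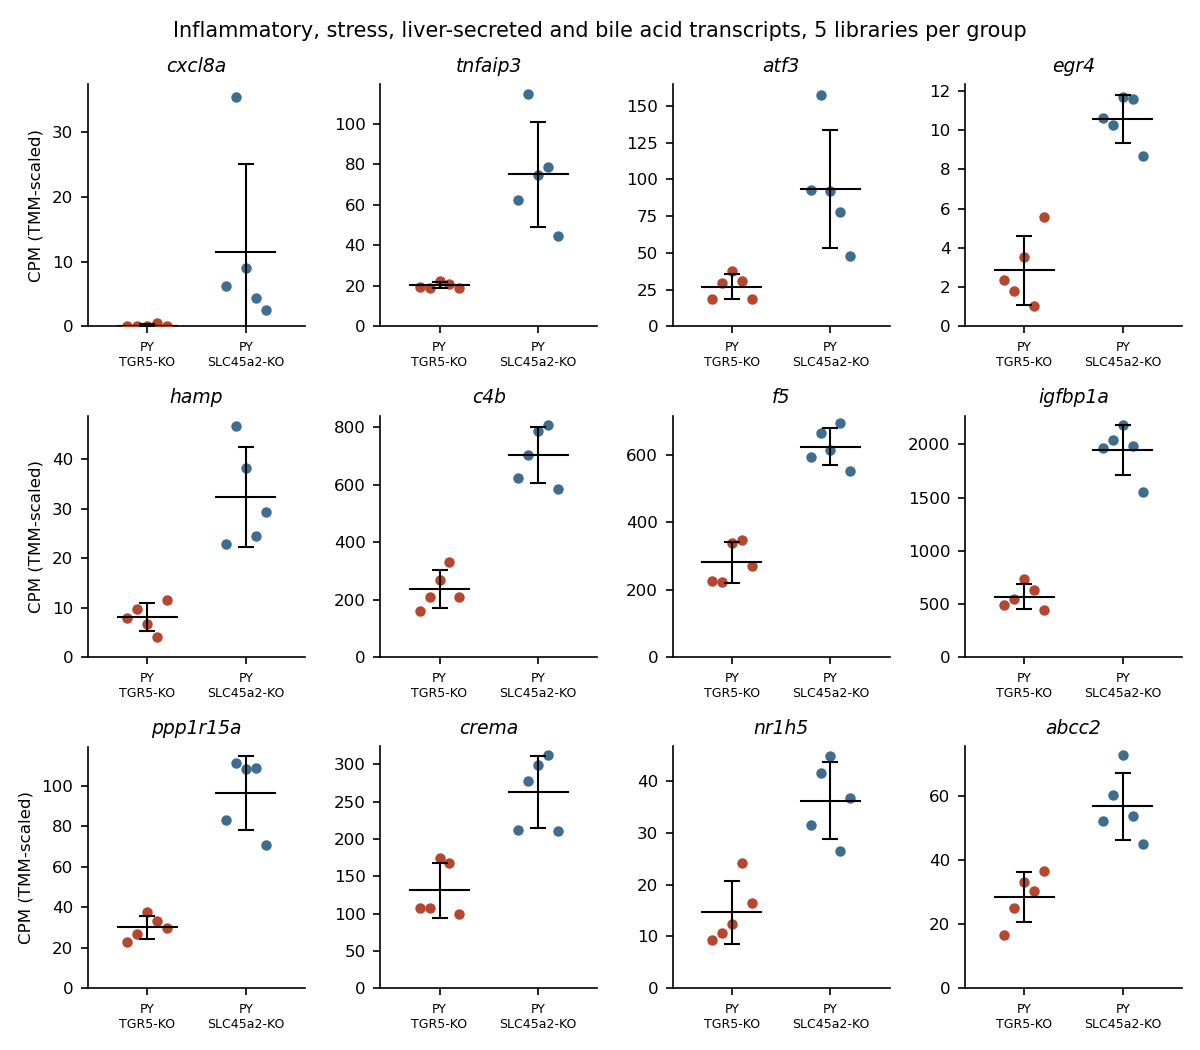
Levels of 12 genes in CPM on TMM-scaled library sizes, with PY TGR5-KO in red left of PY SLC45a2-KO in blue, 1 point per library (5 per group), the mean as a horizontal bar and the SD as whiskers cut at 0. The 12 genes were picked among those called lower, and no red point reaches the blue range in any panel. Over all genes tested, PY TGR5-KO lay below without overlap for 4.87%. The red points of tnfaip3 lie at 19 to 22.5 CPM.

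Immune cell markers were given beside these genes. Of 18 tested neutrophil markers 4 fell (22.2%, against 6.29% over all genes) and 0 rose. The median log2 change of this list was -0.68, and 16 of the 18 had a negative change. The granule protease npsn, a defining neutrophil marker, averaged 9.84 CPM in PY TGR5-KO and 9.83 CPM in PY SLC45a2-KO (adjusted p = 0.985). The myeloperoxidase mpx averaged 7.19 CPM in PY TGR5-KO and 12.8 CPM in PY SLC45a2-KO and did not pass (adjusted p = 0.17), and lyz had no count in any of the 10 libraries. The summed level of the neutrophil list was 1065 to 1289 CPM in PY TGR5-KO and 1050 to 1606 CPM in PY SLC45a2-KO. Of this sum 58.6% was cpa5, a carboxypeptidase that was also taken as a marker of exocrine pancreas, so the sum does not measure neutrophils. Lower members of the neutrophil list included the cytokine receptor il6r (log2 change -1.10 ± 0.23, adjusted p = 0.00195), and 2 of the 4 were left without PY TGR5-KO 1, 2, 3 or 5 or PY SLC45a2-KO 3. Of 24 macrophage and microglia markers 2 fell and 0 rose (1 fell without PY TGR5-KO 1, 2 or 5 or PY SLC45a2-KO 3 or 4, and 4 without PY TGR5-KO 4), one being the myeloid factor spi1b (Pu.1), at 13.3 CPM in PY TGR5-KO and 26.8 CPM in PY SLC45a2-KO (log2 change -1.02 ± 0.22, adjusted p = 0.00282). The antigen-presentation chain cd74a averaged 146.1 CPM in PY TGR5-KO and 112 CPM in PY SLC45a2-KO and did not pass (adjusted p = 0.109), and mpeg1.1 had no count. The macrophage list summed to 1362 to 1584 CPM in PY TGR5-KO and to 1408 to 1722 CPM in PY SLC45a2-KO. Of its 24 tested members 18 had a negative change, and the median log2 change was -0.295. The part of immune cell number in the lower NF-kB and AP-1 transcripts was not tested. For interferon response and antigen presentation 0 of 30 tested genes rose and 1 fell, and for lymphocyte markers 0 of 7 passed in either direction (0 at an unadjusted p under 0.05 and 0 by DESeq2).

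Secreted liver proteins of the innate response were lower in PY TGR5-KO. In the complement list 12 of 26 tested genes fell and 1 rose (median log2 change -0.61), and in the clotting list 12 of 22 fell and 1 rose (-0.59). Without single libraries 8 to 12 genes of each list fell. The classical pathway component c4b stood at 160.6, 209, 270, 332 and 211 CPM in PY TGR5-KO and at 625, 704, 786, 808 and 585 CPM in PY SLC45a2-KO. Its groups were far apart, the highest PY TGR5-KO library lying below the lowest PY SLC45a2-KO one (log2 change -1.58 ± 0.16, adjusted p = 4.39e-07). The alternative pathway protease cfb averaged 29.7 CPM in PY TGR5-KO and 79.6 CPM in PY SLC45a2-KO (log2 change -1.43 ± 0.20, adjusted p = 3.33e-05), and its regulator cfi 135 and 296 CPM (-1.14 ± 0.17, adjusted p = 5.72e-05). The central component c3a.3, whose near-identical copies make it uncertain as a single gene, changed by -0.97 ± 0.13 on the log2 scale (adjusted p = 1.77e-05).

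Among clotting factors, f5, the cofactor of thrombin generation, stood at 225, 223, 339, 349 and 271 CPM in PY TGR5-KO and at 595, 665, 615, 693 and 554 CPM in PY SLC45a2-KO (log2 change -1.16 ± 0.14, adjusted p = 2.46e-06). The fibrinogen chains fgg and fgb, which form the clot, also fell without overlap between the groups (log2 change -0.86 ± 0.16 and -0.62 ± 0.14, adjusted p = 0.000477 and 0.00303). The clotting trigger f3b (tissue factor) averaged 4.54 CPM in PY TGR5-KO and 14.1 CPM in PY SLC45a2-KO (log2 change -1.65 ± 0.38, adjusted p = 0.00665), with overlap of single libraries. The list of matrix metalloproteinases and their inhibitors had 3 of 16 lower and 1 higher, with the metalloproteinase inhibitor timp2b at 44.9 CPM in PY TGR5-KO and 140.8 CPM in PY SLC45a2-KO (log2 change -1.66 ± 0.37, adjusted p = 0.0183). Without PY TGR5-KO 1 or 2 the timp2b call was lost (adjusted p up to 0.0562) and 1 gene of that list was lower, while 5 were lower without PY TGR5-KO 4.

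The wider acute phase list moved in both directions, with 6 of 39 tested genes lower and 3 higher (5 higher without PY TGR5-KO 1). The iron hormone hamp (hepcidin), which blocks iron export from cells, stood at 7.9, 9.71, 6.81, 4.21 and 11.6 CPM in PY TGR5-KO and at 22.9, 46.8, 38.3, 24.6 and 29.5 CPM in PY SLC45a2-KO (log2 change -2.01 ± 0.25, adjusted p = 4.95e-06). The copper-carrying ferroxidase cp held 849, 835, 1133, 1397 and 1148 CPM in PY TGR5-KO and 1869, 2570, 2834, 2615 and 1873 CPM in PY SLC45a2-KO (log2 change -1.14 ± 0.15, adjusted p = 1.55e-05). Both groups of libraries stayed apart for these genes. Angiotensinogen, agt, averaged 22.9 CPM in PY TGR5-KO and 55.4 CPM in PY SLC45a2-KO (log2 change -1.28 ± 0.19, adjusted p = 5.72e-05). In the opposite direction fabp1b.1, a fatty acid carrier of liver and gut, averaged 909 CPM in PY TGR5-KO and 440 CPM in PY SLC45a2-KO (log2 change 1.04 ± 0.13, adjusted p = 6.71e-06). So did ahsg2, a fetuin that falls in the mammalian acute phase, at 32.7, 35.2, 55, 55.5 and 89.9 CPM in PY TGR5-KO and 13.2, 10.5, 9.7, 22.9 and 24.4 CPM in PY SLC45a2-KO (log2 change 1.73 ± 0.33, adjusted p = 0.00424). A list of iron-handling genes, assembled after values had been seen, held 7 lower and 1 higher of 26 tested. Its lower members included the iron sensor tfr2 (log2 change -1.35 ± 0.31, adjusted p = 0.00404) and hbxb, annotated as a haem-scavenging hemopexin, at 23.9 CPM in PY TGR5-KO and 71.7 CPM in PY SLC45a2-KO (-1.60 ± 0.31, adjusted p = 0.00504).

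General hepatocyte transcripts did not fall as a block beside these secreted proteins. Of 51 tested hepatocyte markers 10 rose and 5 fell, with a median log2 change of 0.08 and a summed level of 33650 to 46090 CPM in PY TGR5-KO and 35390 to 48010 CPM in PY SLC45a2-KO. The liver fatty acid-binding protein fabp10a was at 3153, 3273, 3241, 3638 and 3306 CPM in PY TGR5-KO and at 4231, 4060, 6338, 4197 and 3633 CPM in PY SLC45a2-KO. The lowest PY SLC45a2-KO library thus lay just under the highest PY TGR5-KO one, and the difference was small (log2 change -0.44 ± 0.13, adjusted p = 0.0217). The fabp10a call was lost without PY TGR5-KO 1 or 3 or PY SLC45a2-KO 3 (adjusted p up to 0.123). Transferrin, tfa, averaged 3887 CPM in PY TGR5-KO and 4092 CPM in PY SLC45a2-KO and did not pass (adjusted p = 0.739). Of the hepatocyte markers 6 were higher without PY SLC45a2-KO 2, and 2 or 3 were lower without PY TGR5-KO 1, 2 or 3 or PY SLC45a2-KO 3.

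Stress and wasting signals were lower in part. The list of the integrated stress and unfolded protein responses had 6 lower and 1 higher of 39 tested, with a median log2 change of 0.08. The members that fell included ppp1r15a (Gadd34), which reverses the translational block of the stress response, at 22.6, 26.9, 37.9, 33.1 and 29.8 CPM in PY TGR5-KO and 83, 111, 108, 109 and 70.6 CPM in PY SLC45a2-KO. No PY TGR5-KO library came within reach of a PY SLC45a2-KO library (log2 change -1.69 ± 0.17, adjusted p = 2.54e-07). The pro-apoptotic factor ddit3 (Chop) averaged 47.3 CPM in PY TGR5-KO and 92.5 CPM in PY SLC45a2-KO (log2 change -0.97 ± 0.15, adjusted p = 8.88e-05), and the mTOR inhibitor ddit4 averaged 23 and 40.3 CPM (-0.81 ± 0.20, adjusted p = 0.00672). In a list of growth arrest and apoptosis genes 5 of 26 fell and 0 rose, with 3 lower without PY TGR5-KO 1 or 2 or PY SLC45a2-KO 3, 4 or 5.

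The insulin-like growth factor (IGF) axis was marked by igfbp1a, a liver-secreted protein that binds IGFs and rises in fasting and illness. Its libraries stood at 488, 545, 732, 635 and 442 CPM in PY TGR5-KO and at 1968, 2044, 2183, 1988 and 1549 CPM in PY SLC45a2-KO, the smallest adjusted p among the genes named (log2 change -1.78 ± 0.14, adjusted p = 2.44e-09). The adaptor irs2a, which carries insulin signals into cells and is repressed by insulin in mammalian liver, averaged 18.3 CPM in PY TGR5-KO and 40.9 CPM in PY SLC45a2-KO (log2 change -1.17 ± 0.19, adjusted p = 0.000126). The paralogue igfbp1b was lower too, but not past the threshold without PY TGR5-KO 1 or with the 15 PY libraries in the fit (log2 change -1.39 ± 0.33, adjusted p = 0.0173, against 0.0618 and 0.109). In all 3 of 23 tested IGF genes fell (13%, against 6.29% over all genes) and 0 rose. The number lower was 5 without PY TGR5-KO 4 or PY SLC45a2-KO 1.

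Muscle atrophy genes gave a weaker picture. The ubiquitin ligase fbxo32 (atrogin-1), which tags muscle proteins for breakdown, stood at 15.2, 8.59, 24.2, 26.3 and 25.7 CPM in PY TGR5-KO and at 36.7, 42.2, 70.9, 59.4 and 33.1 CPM in PY SLC45a2-KO (log2 change -1.29 ± 0.28, adjusted p = 0.00612). Libraries did not overlap, yet the call was lost where the PY CYP7a1-KO libraries shared the estimate of spread (adjusted p up to 0.129). Its list had 4 lower and 2 higher of 35, with 1 lower without PY TGR5-KO 1 or 2 or PY SLC45a2-KO 3 and 2 lower without PY SLC45a2-KO 2 or 4. Of 47 tested autophagy and lysosome genes 3 fell and 0 rose. That is 6.38% lower, near the 6.29% over all genes, so the list did not stand out by its calls. Yet 40 of the 47 had a negative change, and the median log2 change was -0.23, against 0.0042 over all genes. Outside that list, the autophagy receptors retreg1 (of the endoplasmic reticulum) and calcoco1b and the LC3-family member map1lc3cl had some of the deepest falls. The last stood at 6.41, 5.42, 11.4, 5.52 and 5.82 CPM in PY TGR5-KO and at 50.1, 33.4, 40.06, 22.1 and 13.6 CPM in PY SLC45a2-KO (log2 change -2.21 ± 0.31, adjusted p = 9.65e-05). For retreg1 the means were 3.54 CPM in PY TGR5-KO and 13.7 CPM in PY SLC45a2-KO (log2 change -1.95 ± 0.31, adjusted p = 0.000115), and for calcoco1b 2.69 and 11 CPM (-2.03 ± 0.39, adjusted p = 0.000839).

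In the receptor's own pathway 5 of 23 tested genes of TGR5 and cyclic AMP signalling (34 listed) fell and 0 rose. That is 21.7% lower, against 6.29% over all genes, with a median log2 change of -0.13. The inducible cyclic AMP repressor crema (CREM) stood at 107, 108, 174, 167.2 and 99.6 CPM in PY TGR5-KO and 213, 278, 299, 313 and 210 CPM in PY SLC45a2-KO. All PY TGR5-KO libraries were lower (log2 change -1.01 ± 0.17, adjusted p = 0.000219). The phosphodiesterase pde4cb, which degrades cyclic AMP and is induced by it, averaged 7.19 CPM in PY TGR5-KO and 14.2 CPM in PY SLC45a2-KO (log2 change -0.99 ± 0.25, adjusted p = 0.00808). The kinase A subunit prkacba averaged 3.87 and 9.47 CPM in the same order (log2 change -1.30 ± 0.32, adjusted p = 0.00724). Further members were near the threshold. The CREB coactivator crtc1a (log2 change -0.83 ± 0.23, adjusted p = 0.0172) lost its call without PY TGR5-KO 2 or PY SLC45a2-KO 4 (up to 0.0697), each of which left 3 lower genes. The stimulatory G protein gnas (log2 change -0.45 ± 0.15, adjusted p = 0.0442) lost it without any single library but PY TGR5-KO 4 and 5 (up to 0.127). The adenylyl cyclase adcy3a, which makes cyclic AMP, did not pass (log2 change -0.05 ± 0.27, adjusted p = 0.929). Neither did dio2 (-0.47 ± 0.30, adjusted p = 0.347) or the mitochondrial coactivator ppargc1a (0.38 ± 0.22, adjusted p = 0.285), both of which were picked as known outputs of the receptor after values were seen.

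Of 11 tested genes of bile acid synthesis and feedback 2 fell, both nuclear receptors, and 0 rose. The share lower, 18.2% against 6.29% over all genes, rests on these 2. The nuclear receptor nr1h5, a paralogue of FXR, stood at 9.4, 10.6, 12.4, 24.2 and 16.5 CPM in PY TGR5-KO and at 31.4, 41.4, 44.8, 26.5 and 36.7 CPM in PY SLC45a2-KO (log2 change -1.32 ± 0.23, adjusted p = 0.000268). The nuclear receptor nr5a2, which drives bile acid enzymes in mammalian liver, stood at 27.3, 32.5, 32.1, 35.5 and 37.6 CPM in PY TGR5-KO and at 43, 59.26, 71.7, 81.2 and 61.7 CPM in PY SLC45a2-KO (log2 change -0.95 ± 0.17, adjusted p = 0.000431). Both were lower in every PY TGR5-KO library. The first enzyme of the classical route, cyp7a1, averaged 12.9 ± 4.24 CPM in PY TGR5-KO and 8.565 ± 3.101 CPM in PY SLC45a2-KO (SD, n = 5 each) and did not pass (log2 change 0.58 ± 0.28, adjusted p = 0.185). The sterol hydroxylase cyp8b1 averaged 12.1 and 7.84 CPM in the same order, with PY TGR5-KO 1 and 2 above all others, and did not pass either (adjusted p = 0.16).

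Export of bile acids was represented by 10 tested transporters and carriers, of which 3 fell (30%, against 6.29% over all genes) and 0 rose. The canalicular pump abcc2 stood at 16.7, 25.1, 33.3, 30.5 and 36.6 CPM in PY TGR5-KO and at 52.2, 60.3, 72.7, 53.9 and 44.9 CPM in PY SLC45a2-KO, again without overlap (log2 change -1.01 ± 0.19, adjusted p = 0.000666). The bile salt export pump abcb11b averaged 120.4 ± 28.0 CPM in PY TGR5-KO and 227.4 ± 83.7 CPM in PY SLC45a2-KO (SD, n = 5 each). Its groups overlapped, and the call (log2 change -0.92 ± 0.26, adjusted p = 0.0339) was lost without any single library but PY TGR5-KO 4 and PY SLC45a2-KO 1 and 5 (up to 0.101). The basolateral exporter subunit slc51a behaved likewise, at 191 CPM in PY TGR5-KO and 264 CPM in PY SLC45a2-KO (log2 change -0.48 ± 0.15, adjusted p = 0.0423, and up to 0.125 without any single library but PY TGR5-KO 1 and 2 and PY SLC45a2-KO 4). Without PY TGR5-KO 3 or 5 or PY SLC45a2-KO 2 or 3, abcc2 was the one transporter called lower.

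Since the tumour line overproduces YAP in liver, YAP targets and duct markers were examined. Of 33 tested YAP targets 6 fell (18.2%, against 6.29% over all genes) and 1 rose, at a median log2 change of -0.04. Without PY SLC45a2-KO 3 the list had 3 lower. The classical target cyr61, a matricellular protein, averaged 28.1 CPM in PY TGR5-KO and 43.5 CPM in PY SLC45a2-KO (log2 change -0.63 ± 0.20, adjusted p = 0.0364, and up to 0.137 without any single library but PY TGR5-KO 1 and 3 and PY SLC45a2-KO 5). The clotting trigger f3b, given above, is a member of this list as well. The junction protein amotl2b did not pass (log2 change -0.51 ± 0.23, adjusted p = 0.141). Of 14 biliary and ductal markers 5 fell and 3 rose. Those lower included the duct factor sox9b at 36.8 CPM in PY TGR5-KO and 66.4 CPM in PY SLC45a2-KO (log2 change -0.86 ± 0.16, adjusted p = 0.000742), the annexin anxa4 at 296 and 512 CPM (-0.80 ± 0.14, adjusted p = 0.00031) and the tight junction claudin cldnc at 30.2 and 57.4 CPM (-0.93 ± 0.17, adjusted p = 0.000347). The duct list summed to 742.8 to 875.9 CPM in PY TGR5-KO and to 953.3 to 1167 CPM in PY SLC45a2-KO, with epcam at 0 counts in all 10 libraries.

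Vessel and heart genes went both ways, with 6 of 33 lower and 3 higher (18.2% and 9.09%, against 6.29% and 6.02% over all genes). The lymphatic and hepatoblast factor prox1a stood at 35.7, 33.2, 40.9, 43.4 and 32.7 CPM in PY TGR5-KO and at 58.2, 83.7, 92.1, 104 and 72.5 CPM in PY SLC45a2-KO (log2 change -1.15 ± 0.16, adjusted p = 3.54e-05). The vessel growth factor vegfaa averaged 11.12 CPM in PY TGR5-KO and 20.2 CPM in PY SLC45a2-KO (log2 change -0.87 ± 0.22, adjusted p = 0.00862, and 0.0552 without PY SLC45a2-KO 2). The endothelial cadherin cdh5 averaged 29.5 and 47.5 CPM (log2 change -0.69 ± 0.18, adjusted p = 0.0132, and 0.052 without PY SLC45a2-KO 4). The contractile kinase mylka fell (log2 change -0.82 ± 0.15, adjusted p = 0.000632) while the smooth muscle actin acta2 rose, at 82 CPM in PY TGR5-KO and 36.5 CPM in PY SLC45a2-KO (1.16 ± 0.18, adjusted p = 7.95e-05). Outside any list, the phosphatase ppm1h (log2 change -1.85 ± 0.21, adjusted p = 8.42e-07) and the polarity gene crb2a (-1.81 ± 0.40, adjusted p = 0.00413) were among the deepest falls.

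Skeletal muscle transcripts formed the broadest higher group. Of 108 tested sarcomere genes (139 listed) 45 rose and 0 fell, against 6.02% higher over all genes, with a median log2 change of 0.45. Leaving out single libraries gave 33 to 46. The list summed to 87300 to 116800 CPM in PY TGR5-KO and to 62200 to 81390 CPM in PY SLC45a2-KO, so that the groups did not overlap in the sum either. The thin filament protein tpm1 stood at 371, 335, 383, 383 and 374 CPM in PY TGR5-KO and at 182, 121, 141.6, 148.6 and 160.5 CPM in PY SLC45a2-KO (log2 change 1.28 ± 0.13, adjusted p = 2.54e-07). Skeletal actin acta1b held 1273, 980, 1219, 1301 and 1127 CPM in PY TGR5-KO and 522, 349, 423, 497 and 679 CPM in PY SLC45a2-KO (log2 change 1.25 ± 0.14, adjusted p = 1.88e-06). Each lowest PY TGR5-KO library stayed well above the highest PY SLC45a2-KO one. The slow-fibre myosin-binding protein mybpc1 stood at 41.9, 32.1, 40.9, 26.6 and 44.9 CPM in PY TGR5-KO and at 13.4, 11.9, 14.7, 13.3 and 15.1 CPM in PY SLC45a2-KO (log2 change 1.44 ± 0.19, adjusted p = 9.9e-06). The myosin chaperone partner smyd1b, needed for myofibril assembly in zebrafish, averaged 29.2 CPM in PY TGR5-KO and 9.67 CPM in PY SLC45a2-KO (log2 change 1.58 ± 0.24, adjusted p = 5.72e-05).

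Nebulin, neb, the ruler of the thin filament, differed in kind from the rest. PY TGR5-KO libraries held 264, 139, 62, 20 and 77 counts, or 56.4, 31.4, 15.6, 5.26 and 18.7 CPM, while 1 of the 5 PY SLC45a2-KO libraries held any, at 0.249 CPM. WT larvae carried the transcript with either set of guides, at 20.4 to 44.2 CPM in WT TGR5-KO and 31.7 to 42.1 CPM in WT SLC45a2-KO, and so did PY CYP7a1-KO larvae, at 21.3 CPM on average. Its fitted log2 change, 8.40 ± 1.01 (adjusted p = 0.0004), rests on a group near 0 and is no measure of size; it became 9.78 without PY SLC45a2-KO 3.

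Respiratory chain transcripts were higher together with muscle. Of 71 tested nuclear genes of oxidative phosphorylation 21 rose and 0 fell (median log2 change 0.38), and single libraries moved the count between 14 and 25. The ATP synthase ring subunit atp5mc3b stood at 962, 816, 995, 799 and 1050 CPM in PY TGR5-KO and at 574, 570, 629, 443 and 580 CPM in PY SLC45a2-KO (log2 change 0.72 ± 0.12, adjusted p = 0.000263). The complex III iron-sulfur protein uqcrfs1 was at 122 to 129 CPM in all PY TGR5-KO libraries and at 57 to 94.7 CPM in PY SLC45a2-KO (log2 change 0.67 ± 0.14, adjusted p = 0.0023). By contrast the complex IV subunit cox4i1 averaged 235 CPM in PY TGR5-KO and 243 CPM in PY SLC45a2-KO (adjusted p = 0.819). Of 12 transcripts encoded in mitochondrial DNA 7 rose and 0 fell (median log2 change 0.44), and 4 rose without PY SLC45a2-KO 2 or 3. These 12 summed to 25260 to 31290 CPM in PY TGR5-KO and to 20600 to 24960 CPM in PY SLC45a2-KO. They were thus a small part of mitochondrial counts beside the single genome entry, at 26 to 35.7% of all counts, whose change is not given here. The ATP synthase subunit mt-atp6 stood at 4532, 4110, 4446, 3862 and 3974 CPM in PY TGR5-KO and at 2723, 2321, 2822, 2913 and 3624 CPM in PY SLC45a2-KO (log2 change 0.53 ± 0.12, adjusted p = 0.00318), and the complex I subunit mt-nd1 rose likewise (0.55 ± 0.12, adjusted p = 0.00217). The complex IV subunit mt-co1 did not pass (log2 change 0.10 ± 0.12, adjusted p = 0.632). Sarcomere genes moved with these transcripts, and the part of muscle content was not tested.

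**Figure D4:**
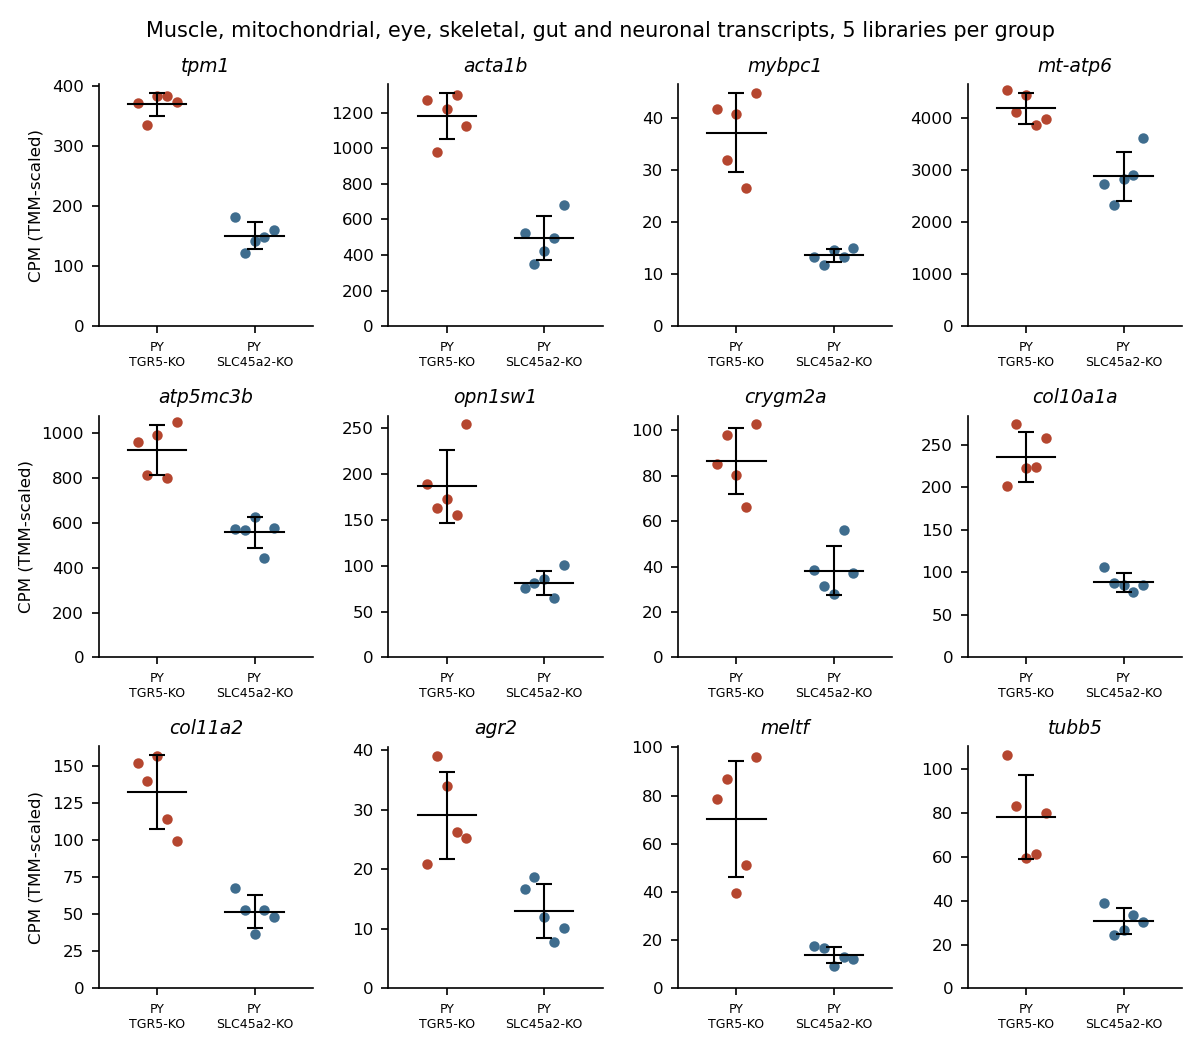
Levels of 12 genes in CPM on TMM-scaled library sizes, with PY TGR5-KO in red left of PY SLC45a2-KO in blue, 1 point per library (5 per group), the mean as a horizontal bar and the SD as whiskers. The 12 genes were picked among those called higher, and the red points lie above the blue ones in all panels. Over all genes tested, PY TGR5-KO lay above without overlap for 4.53%. For tpm1 PY TGR5-KO is at 335 to 383 CPM against 121 to 182 CPM in PY SLC45a2-KO.

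Lens crystallins had the highest share of higher genes of any list. Of 36 tested crystallins, the refractive proteins of lens fibre cells, 23 rose and 0 fell (median log2 change 0.58), and the list summed to 4256 to 5847 CPM in PY TGR5-KO and 2616 to 3274 CPM in PY SLC45a2-KO. Many crystallin genes are near-identical copies, so single members are uncertain. Some gamma-crystallins, among them crygm2d21, lie near neb on chromosome 9, a stretch described below where PY SLC45a2-KO was at or near 0. The lens counts without genes of that stretch were not examined. The beta-crystallin cryba4 stood at 615, 553, 512, 616 and 645 CPM in PY TGR5-KO and at 280, 318, 365, 377 and 423 CPM in PY SLC45a2-KO (log2 change 0.73 ± 0.13, adjusted p = 0.000327). The gamma-crystallin crygm2a averaged 86.4 CPM in PY TGR5-KO and 38.2 CPM in PY SLC45a2-KO (log2 change 1.18 ± 0.18, adjusted p = 5.9e-05). Among rod and cone genes 11 of 49 rose and 0 fell. The ultraviolet cone opsin opn1sw1 held 189, 162.7, 173, 154.9 and 255 CPM in PY TGR5-KO and 75.8, 81.4, 85.1, 64.9 and 101 CPM in PY SLC45a2-KO (log2 change 1.19 ± 0.15, adjusted p = 7.42e-06). The green cone opsin opn1mw1 averaged 19.9 CPM in PY TGR5-KO and 7.12 CPM in PY SLC45a2-KO (log2 change 1.48 ± 0.26, adjusted p = 0.00027). Rod opsin, rho, rose less (log2 change 0.74 ± 0.14, adjusted p = 0.000982), and cone transducin gnat2 did not pass (0.31 ± 0.19, adjusted p = 0.314).

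Of 68 tested neuronal genes 7 rose, against 6.02% over all genes, and 0 fell. Those higher included tubulins of growing neurons. The beta-tubulin tubb5 stood at 106, 83.4, 59.6, 61.3 and 80.2 CPM in PY TGR5-KO and at 39, 24.2, 26.9, 33.7 and 30.1 CPM in PY SLC45a2-KO (log2 change 1.34 ± 0.18, adjusted p = 1.11e-05), and tuba1c averaged 201 and 96.1 CPM in the same order (1.06 ± 0.14, adjusted p = 7.81e-06). The axon growth protein gap43 rose (log2 change 0.72 ± 0.16, adjusted p = 0.00404), while the synaptic fusion protein snap25a did not pass (-0.25 ± 0.14, adjusted p = 0.252).

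Skeletal and connective tissue genes rose with large changes. In the bone list 10 of 21 tested genes rose and 2 fell (median log2 change 0.80), in the cartilage list 10 of 25 rose and 4 fell (0.74, with 2 lower without PY TGR5-KO 2 or 5 or PY SLC45a2-KO 1 or 3), and among fibrillar collagens and fibroblast matrix 20 of 44 rose and 3 fell (0.55). The hypertrophic cartilage and osteoblast collagen col10a1a stood at 202, 274, 223, 223 and 258 CPM in PY TGR5-KO and at 106, 87.6, 85.3, 76.5 and 85.4 CPM in PY SLC45a2-KO, the groups being clear of each other (log2 change 1.41 ± 0.14, adjusted p = 2.53e-07). The osteoblast membrane protein ifitm5 averaged 21 CPM in PY TGR5-KO and 6.81 CPM in PY SLC45a2-KO (log2 change 1.61 ± 0.30, adjusted p = 0.000788), and the bone matrix protein spp1 (osteopontin) 39.9 and 20.2 CPM (0.98 ± 0.19, adjusted p = 0.00102). Genes of mineralised tooth and scale surfaces spread most between libraries. The enamel matrix gene enam, which was in no list, stood at 12.4, 26.2, 27.5, 50.5 and 16.5 CPM in PY TGR5-KO and at 1.85, 1.85, 0.746, 1.11 and 6.57 CPM in PY SLC45a2-KO (log2 change 3.38 ± 0.55, adjusted p = 0.0023, and 4.199 without PY SLC45a2-KO 5). Its relative scpp7, a secreted calcium-binding phosphoprotein, was at 2.78, 18.3, 32.3, 241 and 30.1 CPM in PY TGR5-KO and at most 1.93 CPM in PY SLC45a2-KO. One library set its mean, since the log2 change was 5.81 ± 1.39 (adjusted p = 0.0308) with PY TGR5-KO 4 and 4.18 without it, and the call was lost without any PY SLC45a2-KO library (up to 0.0792).

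The cartilage collagen col11a2 averaged 132.6 ± 24.8 CPM in PY TGR5-KO and 51.7 ± 11.3 CPM in PY SLC45a2-KO (SD, n = 5 each), with no overlap (log2 change 1.35 ± 0.17, adjusted p = 3.44e-06). A second cartilage collagen, col2a1b, averaged 272 CPM in PY TGR5-KO and 125 CPM in PY SLC45a2-KO (log2 change 1.12 ± 0.16, adjusted p = 3.58e-05). The cartilage matrix protein matn1 averaged 49.3 and 21 CPM (log2 change 1.22 ± 0.23, adjusted p = 0.00145), but it did not pass where all 15 PY libraries shared the spread (0.126). Against this direction the joint lubricant prg4b was lower, at 10.9, 11.3, 23.5, 25 and 27.2 CPM in PY TGR5-KO and 32.1, 65.4, 51.3, 60.8 and 29 CPM in PY SLC45a2-KO (log2 change -1.30 ± 0.29, adjusted p = 0.00831). The fibrillar collagen col1a2 held 1580, 1513, 1809, 2400 and 1907 CPM in PY TGR5-KO and 1322, 650, 837, 1263 and 1125 CPM in PY SLC45a2-KO (log2 change 0.82 ± 0.17, adjusted p = 0.00444). Type V collagen, col5a1, which starts collagen fibrils, rose less (log2 change 0.65 ± 0.14, adjusted p = 0.00206). Among the 3 lower members of the matrix list was thbs1a, a secreted thrombospondin that activates TGF-beta in mammals. It stood at 9.18, 17.2, 27.3, 20 and 17 CPM in PY TGR5-KO and at 61.2, 61.9, 64.7, 74.9 and 52.4 CPM in PY SLC45a2-KO (log2 change -1.81 ± 0.20, adjusted p = 1.33e-06). The entry col1a1a had no count in any of the 10 libraries.

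Gut and skin transcripts were also higher. Of 43 tested intestinal genes 15 rose and 1 fell (median log2 change 0.46), and the list summed to 5418 to 6584 CPM in PY TGR5-KO and 3510 to 4440 CPM in PY SLC45a2-KO. The goblet cell protein agr2, which folds mucins, stood at 20.9, 39.1, 34.1, 26.3 and 25.2 CPM in PY TGR5-KO and at 16.6, 18.7, 11.9, 7.74 and 10.18 CPM in PY SLC45a2-KO (log2 change 1.15 ± 0.23, adjusted p = 0.00144). Enterocyte enzymes of the brush border rose too. The alkaline phosphatase alpi.2 averaged 25.3 CPM in PY TGR5-KO and 10.7 CPM in PY SLC45a2-KO (log2 change 1.23 ± 0.22, adjusted p = 0.000341), and the meprin mep1a.1 averaged 28.7 and 10.6 CPM (1.43 ± 0.26, adjusted p = 0.000527). The chitinase chia.1 of the digestive tract, whose copies are similar in sequence, rose (log2 change 0.79 ± 0.12, adjusted p = 9.71e-05). In the exocrine pancreas list 4 of 21 rose and 1 fell, and 2 rose without PY TGR5-KO 1. Of 52 keratin and epidermis genes 15 rose and 5 fell (2 or 3 fell without PY TGR5-KO 1, 3 or 5 or PY SLC45a2-KO 1, 2 or 3). The desmosomal cadherin dsg2.1, which ties epithelial cells together, stood at 77.7, 61.7, 75, 62.3 and 88.7 CPM in PY TGR5-KO and at 23.8, 26.5, 24.1, 31.8 and 34.3 CPM in PY SLC45a2-KO (log2 change 1.37 ± 0.16, adjusted p = 2.46e-06). Its partner dsc2l averaged 113 and 57.2 CPM (log2 change 0.97 ± 0.16, adjusted p = 0.000128).

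Lipoprotein and lipase genes went both ways, with 4 of 32 higher and 6 lower (12.5% and 18.8%, against 6.02% and 6.29% over all genes). The list summed to 21030 to 26630 CPM in PY TGR5-KO and to 21870 to 25960 CPM in PY SLC45a2-KO. The high-density lipoprotein protein apoa1a stood at 820, 692, 917, 858 and 1123 CPM in PY TGR5-KO and at 497, 288, 318, 409 and 520 CPM in PY SLC45a2-KO (log2 change 1.11 ± 0.16, adjusted p = 5.72e-05). The gut apolipoprotein apoa4b.2 averaged 394 CPM in PY TGR5-KO and 191 CPM in PY SLC45a2-KO (log2 change 1.04 ± 0.16, adjusted p = 0.000133). Lipoprotein lipase, lpl, which frees fatty acids for uptake by tissues, went the other way, at 59.16, 52.4, 59.31, 65 and 64.7 CPM in PY TGR5-KO and 87.1, 125, 170, 145.6 and 78.9 CPM in PY SLC45a2-KO (log2 change -1.02 ± 0.17, adjusted p = 0.000303).

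Retinoid genes were grouped after values had been seen, and 6 of 32 tested were higher and 1 lower. The retinoic acid-degrading enzyme cyp26a1, a direct retinoic acid target, stood at 29.7, 13.6, 7.57, 8.94 and 6.55 CPM in PY TGR5-KO and at 3.23, 3.28, 2.49, 3.04 and 2.54 CPM in PY SLC45a2-KO (log2 change 2.18 ± 0.37, adjusted p = 0.000313). The binding protein crabp2b averaged 16.9 CPM in PY TGR5-KO and 4.33 CPM in PY SLC45a2-KO (log2 change 1.94 ± 0.30, adjusted p = 9.59e-05). The retinol-esterifying enzyme lratb.2 averaged 8.51 and 2.84 CPM in the same order (log2 change 1.59 ± 0.34, adjusted p = 0.00248). The carotene-cleaving enzyme family member bco1l rose as well (log2 change 1.45 ± 0.32, adjusted p = 0.00302), with PY TGR5-KO 1 the high library for it as for cyp26a1.

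Several higher genes belonged to no single group. Melanotransferrin, meltf, an iron-binding surface protein, stood at 78.6, 86.8, 39.6, 51 and 96 CPM in PY TGR5-KO and at 17.6, 16.8, 9.21, 13 and 12.3 CPM in PY SLC45a2-KO (log2 change 2.34 ± 0.23, adjusted p = 5.49e-07). The glutathione transferase gstp2, a detoxifying enzyme, averaged 8.07 CPM in PY TGR5-KO and 1.96 CPM in PY SLC45a2-KO (log2 change 2.02 ± 0.38, adjusted p = 0.000698), within an oxidative stress list of which 8 of 39 rose and 2 fell (5 rose without PY SLC45a2-KO 4). The muscle chaperone hsp90aa1.1 stood at 427, 312, 161.3, 129 and 107 CPM in PY TGR5-KO and at 89, 106, 56.7, 53 and 52.6 CPM in PY SLC45a2-KO. The groups met closely, at 107 and 106 CPM, and the call (log2 change 1.66 ± 0.44, adjusted p = 0.0439) was lost without any single library but PY TGR5-KO 4 and 5 (up to 0.107). Of 34 heat shock chaperones 4 rose and 1 fell, with 1 higher without PY TGR5-KO 1 or 2 and 2 higher without PY TGR5-KO 3 or PY SLC45a2-KO 2, 3 or 4. For DNA replication and the cell cycle 9 of 63 rose and 0 fell, and 5 rose without PY SLC45a2-KO 3. Replication factors led these, with mcm4 at 20.5 CPM in PY TGR5-KO and 8.92 CPM in PY SLC45a2-KO (log2 change 1.196 ± 0.24, adjusted p = 0.00152) and the sliding clamp pcna at 101 and 53.3 CPM (0.91 ± 0.20, adjusted p = 0.0051). The proliferation antigen mki67 averaged 45.8 and 45.6 CPM and did not pass. Housekeeping lists had shares of called genes near or under the background. Of 75 cytosolic ribosomal protein genes 1 was higher and 0 lower, though 63 had a positive change (median log2 change 0.16). Of 36 proteasome genes 0 were called by edgeR in either direction (3 at an unadjusted p under 0.05, all higher, and 0 by DESeq2). Of these 36, 28 had a positive change (median log2 change 0.11).

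To ask whether TGR5 targeting acted alike in the absence of the tumour line, the PY change was set against the change between WT TGR5-KO and WT SLC45a2-KO in 1 model of 18 libraries. This difference of changes (PY change minus WT change) passed for 1220 of 14711 genes (8.29%), 692 of them positive (4.7%) and 528 negative (3.59%). In WT itself 1853 of 12996 genes passed (14.3%), 935 of them higher (7.19%) and 918 lower (7.06%). The tumour and any other difference between the WT and PY stocks cannot be told apart in this comparison. The retinoid enzymes moved in opposite directions: cyp26a1 was at 13.9, 9.22, 8.96 and 9.8 CPM in WT TGR5-KO and at 37.8, 33.4, 45.4 and 32.1 CPM in WT SLC45a2-KO (log2 change -1.83, adjusted p = 1.7e-09). Its difference of changes was 4.00 ± 0.45 (adjusted p = 4.33e-07). Levels of lratb.2 showed the same crossing (WT log2 change -1.28, adjusted p = 4.73e-05, difference 2.86 ± 0.40, adjusted p = 5.87e-06). For cyp26a1, tpm1 and meltf alike PY SLC45a2-KO was the lowest of the 4 groups. For tpm1 the WT change was -0.28 (adjusted p = 0.0629) and the difference 1.55 ± 0.17 (adjusted p = 1.08e-07), and for meltf 0.17 (adjusted p = 0.279) and 2.16 ± 0.29 (adjusted p = 3.32e-05).

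Of the 114 genes described here and called in PY, the difference of changes passed for 72 and did not pass for 42, of which 30 had a WT change of the same sign. Among those that did not pass were irs2a (WT change -1.13, adjusted p = 0.000466, difference -0.05 ± 0.29, adjusted p = 0.953) and ddit3 (WT change -0.80, adjusted p = 0.000601, difference -0.18 ± 0.23, adjusted p = 0.708), both lower in WT too. The apolipoprotein apoa1a was higher in WT as in PY (WT change 0.93, adjusted p = 0.0489, difference 0.17 ± 0.30, adjusted p = 0.806), and nr1h5 was lower in both (WT change -1.88, adjusted p = 0.0184, difference 0.54 ± 0.58, adjusted p = 0.654). Complement c4b did not pass in WT (-0.51, adjusted p = 0.383), nor did its difference (-1.08 ± 0.47, adjusted p = 0.194). Positive differences that did not pass included those of fbxo32 (1.8, adjusted p = 0.0734), igfbp1b (1.199, adjusted p = 0.161) and ddit4 (0.6643, adjusted p = 0.134). As these genes fell in PY, a positive value puts the fitted WT fall beyond the PY fall. The differences of retreg1 (-0.1799), calcoco1b (-0.4659) and map1lc3cl (-0.7315) did not pass either (adjusted p = 0.934, 0.849 and 0.542). A difference that misses the threshold does not show that the changes were alike.

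**Figure D5:**
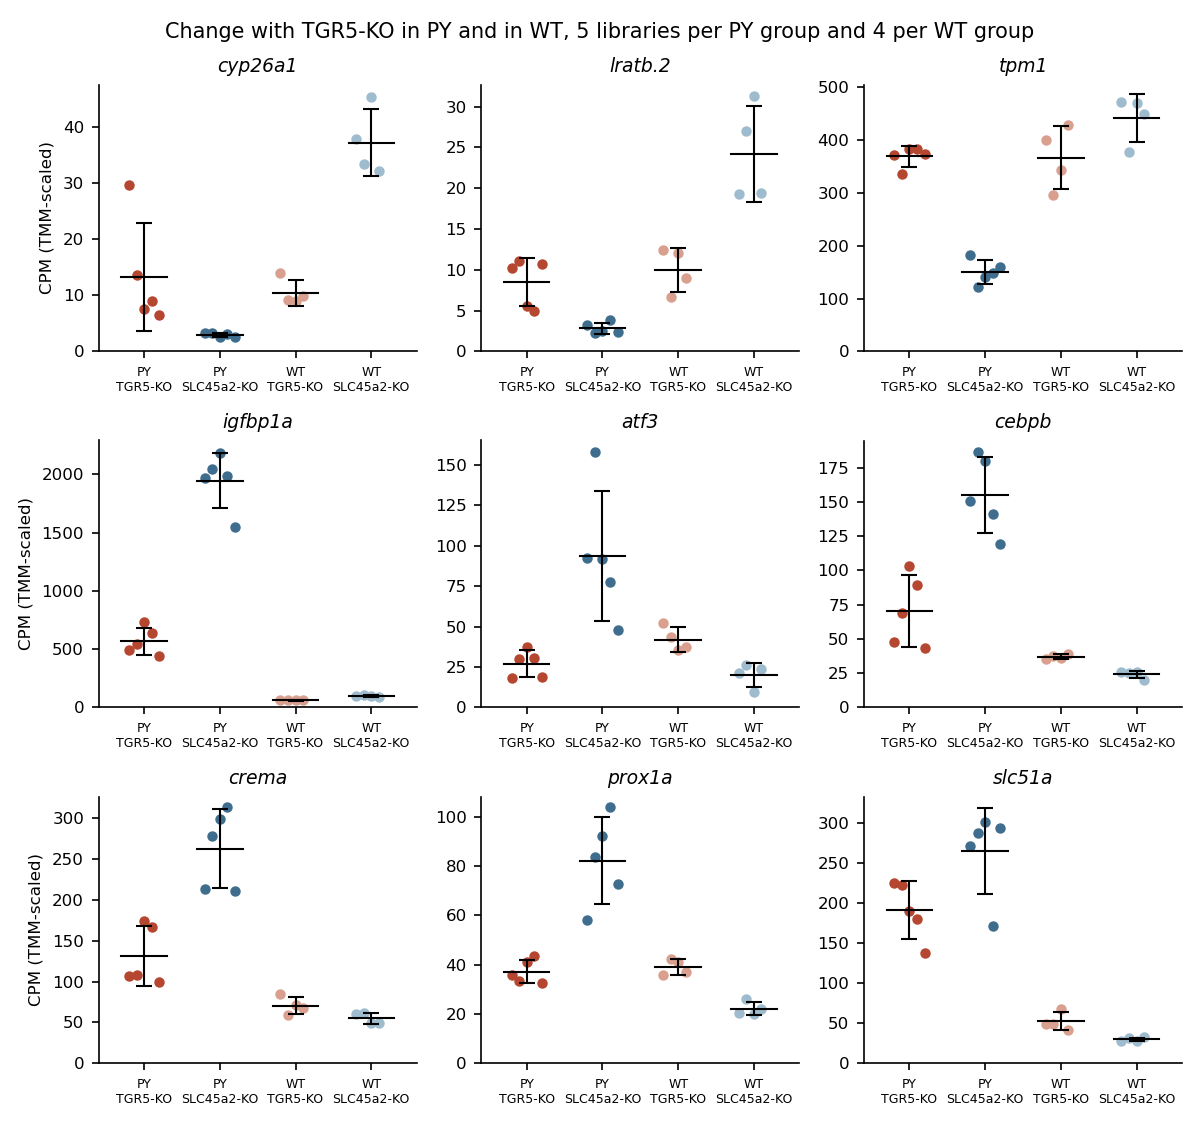
Levels of 9 genes in 4 groups in CPM on TMM-scaled library sizes, from left to right PY TGR5-KO, PY SLC45a2-KO, WT TGR5-KO and WT SLC45a2-KO, 1 point per library (5 per PY group, 4 per WT group), the mean as a horizontal bar and the SD as whiskers. For cyp26a1 and lratb.2 PY SLC45a2-KO is the lowest group and WT SLC45a2-KO the highest, while for the 6 genes of the lower rows PY SLC45a2-KO is the highest.

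The stress-related genes atf3, cebpb and egr4 were not called lower in WT. The WT change of atf3 was 1.05 (adjusted p = 0.00196), with 52.1, 43.3, 35.2 and 37 CPM in WT TGR5-KO and 21.5, 25.9, 9.38 and 23.8 CPM in WT SLC45a2-KO, and the difference of changes was -2.86 ± 0.47 (adjusted p = 0.00103). For cebpb the WT change was 0.61 (adjusted p = 0.00511) and the difference -1.77 ± 0.27 (adjusted p = 4.46e-05). The egr4 transcript did not pass in WT (0.92, adjusted p = 0.323), and its difference was -2.82 ± 0.64 (adjusted p = 0.00274). Levels of prox1a and slc51a rose in WT (0.81 and 0.79, adjusted p = 0.000268 and 0.000143) and gave differences of -1.96 ± 0.23 and -1.28 ± 0.22 (adjusted p = 1.76e-07 and 0.000145). The cyclic AMP repressor crema did not pass in WT (0.34, adjusted p = 0.07), with a difference of -1.36 ± 0.23 (adjusted p = 0.000119). In WT igfbp1a fell as in PY, by less: its WT change was -0.72 (adjusted p = 1.21e-05) and the difference -1.07 ± 0.17 (adjusted p = 5.49e-05).

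The bile acid enzyme cyp7a1 passed in WT, with 27.4, 20.5, 37.3 and 34.9 CPM in WT TGR5-KO and 4.03, 3.64, 0.625 and 1.32 CPM in WT SLC45a2-KO (log2 change 3.65, adjusted p = 4.86e-09). The difference of changes was -3.08 ± 0.47 (adjusted p = 3.98e-05). For hamp and cxcl8a both WT groups were near 0, at up to 0.654 and 1.74 CPM in WT TGR5-KO and up to 0.224 CPM each in WT SLC45a2-KO. Their fitted differences, -4.35 (adjusted p = 0.01) and -9.52 (adjusted p = 0.00226), thus rest on groups near 0; that of hamp did not pass without WT TGR5-KO 4 (0.0589). Near 0 in PY SLC45a2-KO alone were neb (difference 8.48, adjusted p = 0.000265) and the gamma-crystallin crygm2d1 (9.33, adjusted p = 0.00761).

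Of the transcripts at or near 0 in PY SLC45a2-KO, neb, rif1 and crygm2d1 lie close together in the genome. The crystallin crygm2d1 averaged 15.6 CPM in PY TGR5-KO libraries, from 2.1 to 31.4 CPM, and had 0 counts in all 5 PY SLC45a2-KO libraries. Likewise rif1, a regulator of replication timing, had 35, 18, 9, 4 and 10 counts and 0. In the RefSeq annotation of the assembly GRCz12tu all lie on chromosome 9, where rif1 and neb are adjacent with 0 entries between them and 12 entries separate neb from crygm2d1. The crystallin crygm2d21, 17 entries from neb, stood at 19.6, 7, 4.04, 4.21 and 14.8 CPM in PY TGR5-KO and at 0.462, 3.28, 1.74, 0.8289 and 0.848 CPM in PY SLC45a2-KO (log2 change 2.74 ± 0.52, adjusted p = 0.00158, and 3.34 without PY SLC45a2-KO 2). The targeted gene gpbar1 is on the same chromosome, 567 entries from neb. Of 394 tested genes on chromosome 9, 9.64% rose and 5.08% fell. The share that rose was the highest of any chromosome, the others running from 4.25 to 8.06%. It includes neb and crygm2d21, and the share without crystallins was not examined. Among PY TGR5-KO libraries PY TGR5-KO 1 was highest and PY TGR5-KO 4 lowest for neb, rif1 and crygm2d1. All 5 libraries of PY CYP7a1-KO, in which SLC45a2 and CYP7a1 were targeted, held these transcripts, averaging 21.3 CPM of neb, 2.34 CPM of rif1 and 16.9 CPM of crygm2d1. Every WT SLC45a2-KO library held all of them too. Neither PY CYP7a1-KO nor WT SLC45a2-KO larvae had TGR5 guides. For these transcripts PY SLC45a2-KO stood apart from PY larvae with either second target and from WT larvae with SLC45a2 alone targeted. Whether the guides or a difference of stock or clutch set PY SLC45a2-KO apart for these genes was not tested. A further 3 entries known by clone names also had 0 counts in PY SLC45a2-KO, against 33 to 71 counts in all in PY TGR5-KO. The library PY TGR5-KO 2 alone held 63 of the 71 counts of 1 entry and 27 of the 33 of another. Unlike neb, rif1 and crygm2d1, each of these entries had 0 counts in most PY CYP7a1-KO libraries. Their positions were not examined.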

How the data were processed

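RNA of pooled whole larvae was made into 3′ tag libraries with the Lexogen QuantSeq kit, per the labels' protocols. Aligner, counter, annotation and larvae per pool were not given in the sources used here. Both danRer10 and GRCz11 appear as builds, per the submitters' processing notes, and which served the alignment is unstated. The authors deposited 1 table of 39988 entries with raw read counts in 27 columns. The authors also deposited CPM, which equalled count over column total times 1e+06 within 5e-04, and here served only for this check.

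Groups were taken from sample titles. Tests on counts used edgeR 4.0.16 (R 4.3.3): TMM factors, the default filter on expression, a robust quasi-likelihood fit of the 10 PY libraries (common coefficient of variation 0.255) and Benjamini-Hochberg adjustment at 0.05 over all genes tested. The difference of changes was an interaction term over 18 libraries, and the WT change a fit of the 8 WT libraries. Targeted genes under the filter had an exact two-sided permutation test of unscaled CPM. Errors are SE of log2 changes or SD of levels.

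Gene lists (51, with 2 added after values were seen), members and named genes were chosen with earlier results of these data known. Named genes were the 15 with the largest change per direction among those called, at 5 CPM on average and without overlap between groups, up to 6 called genes per list, the first 3 members of each list, and genes at 0 in 1 group with at least 30 counts in the other. Only some of the genes so named are described, and certain results are not reported here. Of the list symbols 2182 matched directly, 72 by another name and 270 by pattern, and 106 did not match. In simulated data with 200 of 12604 genes changed, 7.46, 50.7 and 90.9% of 1.5-fold, 2-fold and 4-fold changes were recovered, and 2.94% of calls were false. The alternatives tried were leaving out each library, the replicate number as a block, 15 or 27 libraries in the fit, a minimum of 5 CPM or no filter, fitting without robust estimation, TMM factors computed without genes above 1% of counts, RLE factors, and DESeq2 1.42.0. The order of genes was read from GRCz12tu in RefSeq, and no coordinates were used.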

Additional observations from a re-analysis of the deposited data

Results flagged for a closer look

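Single libraries stood far from the other 4 of their group in 19 of 258 pairs of gene and group, where chance gives about 1 in 20. In PY TGR5-KO, library 1 stood apart for fosab (160.6 CPM) and bco1l (18.2 CPM), library 2 for cldnc (40.21 CPM) and tpm1 (335 CPM), library 3 for agt (33.8 CPM), map1lc3cl (11.4 CPM) and gap43 (32.6 CPM), and library 4 for cox4i1 (273 CPM) and scpp7 (241 CPM). In PY SLC45a2-KO, library 2 stood apart for cxcl8a (35.5 CPM), nfkbiaa (223 CPM) and hbegfb (31.4 CPM), library 3 for fabp10a (6338 CPM), and library 4 for yap1 (8.01 CPM) and slc51a (170 CPM). Library 5 of that group did so for fabp1b.1 (599 CPM), enam (6.57 CPM), mki67 (56.2 CPM) and ppargc1a (8.27 CPM). The 3 NF-kB and AP-1 genes of PY SLC45a2-KO 2 are all high there, and without that library tnfaip3 and nfkbiaa stayed past the threshold in edgeR.

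The change with TGR5 targeting differed between PY and WT, by the interaction term (PY change minus WT change, log2), for 77 of the 131 named genes with a value. The 16 of them whose difference the report gives are as follows. It was positive for cyp26a1 (4.00), lratb.2 (2.86), meltf (2.16), tpm1 (1.55), neb (8.48) and crygm2d1 (9.33). It was negative for cyp7a1 (-3.08), atf3 (-2.86), egr4 (-2.82), prox1a (-1.96), cebpb (-1.77), crema (-1.36), slc51a (-1.28), igfbp1a (-1.07), hamp (-4.35) and cxcl8a (-9.52). The values of neb, crygm2d1, hamp and cxcl8a rest on groups near 0 CPM and give no size.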

How the results depend on the processing

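Between 1526 and 1797 genes passed under DESeq2 (1797), RLE factors (1549), TMM without abundant genes (1552), no filter (1723), the 5 CPM filter (1530), 27 libraries (1762) and no robust estimation (1526), and 1195 with the 15 PY libraries in the fit. Without single libraries 1079 to 1698 passed, fewest without PY SLC45a2-KO 3 and most without PY TGR5-KO 4. With the replicate block 1684 passed, 1475 of them shared with the 1552 without it; replicate numbers do not pair these libraries, since deviations of same-numbered libraries correlated at -0.0091 to 0.064 and 4 of 10 correlated best with their own number. The difference of changes passed for 1040 to 1448 genes under other settings, 1281 with the replicate block, and for 942 to 1297 without single libraries. In WT 1008 genes passed (481 higher and 527 lower) with 27 libraries in the fit, against 1853. Of the 114 genes named and called in PY, 99 passed under every alternative that gave a value, 101 without each library in turn, and 0 changed direction. With the 15 PY libraries in the fit the calls of gnas, slc51a, cyr61, fabp10a, hsp90aa1.1, igfbp1b, fbxo32 and matn1 were lost (adjusted p up to 0.129), and with the replicate block, among genes named, that of igfbp1b (0.107), while mpx came to pass. The exact permutation p of slc45a2 ran from 0.0476 to 0.325, that of yap1 from 0.0317 to 0.198 and that of gpbar1 from 0.444 to 0.921 without single libraries. In the simulation, where 200 of 12604 genes were changed, changes of 1.5-fold were mostly missed. Recovery with as many changed genes as were called here was not tested. Genes under about 0.8 CPM cannot be told from 0.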

Other observations

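Metabolic and other lists were read against 6.02% higher and 6.29% lower over all genes in PY TGR5-KO against PY SLC45a2-KO. Of 46 tested genes of glycolysis and gluconeogenesis 4 rose and 4 fell, of 35 of fatty acid oxidation and ketones 5 rose (14.3%) and 1 fell, and of 26 of fatty acid synthesis and lipid storage 6 rose (23.1%) and 3 fell (11.5%). Higher genes of fatty acid oxidation numbered 1 to 5 without single libraries, fewest without PY TGR5-KO 1 or PY SLC45a2-KO 4. Of 26 genes of cholesterol synthesis 2 rose and 0 fell, at a median log2 change of 0.48, while 11 were higher at an unadjusted p under 0.05 and 3 passed in DESeq2. The edgeR count was 0 without PY TGR5-KO 1 or 2 or PY SLC45a2-KO 2, 3 or 4 and with the 15 PY libraries in the fit, and 7 without PY TGR5-KO 5 or with no filter. The circadian clock list had 1 of 31 higher and 3 lower, with 7 lower without PY TGR5-KO 4 and 5 without PY TGR5-KO 3. Pigment cell genes, of a tissue edited in both groups, had 3 of 34 higher and 0 lower, with 2 higher without PY TGR5-KO 1, 5 without PY TGR5-KO 4 or PY SLC45a2-KO 1 or 5, 6 in DESeq2 and 7 with 27 libraries in the fit. For the red blood cell list 1 of 31 rose and 0 fell, against 4 and 2 in DESeq2 and 6 and 1 with no robust estimation. Without PY TGR5-KO 1 it had 4 higher, without PY SLC45a2-KO 1 it had 3, and without PY TGR5-KO 4 or PY SLC45a2-KO 2 it had 2. Its summed level was 3386 to 4151 CPM in PY TGR5-KO and 2027 to 3242 CPM in PY SLC45a2-KO.

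The lectin gene jac4 (jacalin 4) had 0 counts in all 5 PY TGR5-KO libraries and counts in all 5 PY SLC45a2-KO libraries, at 0.462, 3.08, 1.99, 1.11 and 0.848 CPM, and no count in the PY CYP7a1-KO, WT TGR5-KO or WT SLC45a2-KO libraries. It was thus seen in PY SLC45a2-KO alone among these 5 groups.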
